A study of Mus musculus with 10 samples.

Results

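The cytosolic heat shock chaperones described here are 9 chaperone genes and Hsf1, the gene of the transcription factor that controls them, taken as 10 named genes from a count table of 57010 mouse genes. The table holds 10 libraries of whole mammary tumours from untreated MMTV-PyMT mice, collected 5 weeks after tumour onset. In 5 libraries the genotype is PyMT; RHBDL4 -/- (KO), and in the other 5 it is PyMT; RHBDL4 +/+ (WT). All of these mice carry the PyMT transgene, in which the mouse mammary tumour virus promoter drives a viral oncogene in mammary epithelium. The labels call both groups only by genotype and do not name the cells in which RHBDL4 was lost. Rhbdd1 encodes RHBDL4, a protease that cuts membrane proteins within the endoplasmic reticulum.

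Cytosolic chaperones bind proteins that are not yet folded or have come unfolded. HSP70 proteins take up short exposed stretches with the help of J-domain proteins and are reset by nucleotide exchange factors, and HSP90 proteins take over later folding steps of many kinases and steroid receptors. In unstressed cells chaperones hold HSF1 inactive, and after heat or other damage HSF1 forms trimers that bind heat shock elements, arrays of inverted nGAAn units, in front of chaperone genes. Tumour cells are known to lean on HSF1 and HSP90.

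The promoters of 4 members are shown because they hold paired heat shock element units, the sites through which HSF1 acts on chaperone genes. Each window runs from 250 bases before to 50 bases after a transcription start in RefSeq (GRCm38.p6), is written 5′ to 3′ on the gene's strand, and has paired inverted units (GAANNTTC or TTCNNGAA) in capitals. Hspa1a lies at chr17:34972107-34972406 on the minus strand, Hspa1b at chr17:34959189-34959488 on the minus strand, Hspb1 at chr5:135887669-135887968 on the plus strand and Hsph1 at chr5:149636287-149636586 on the minus strand.
Hspa1a: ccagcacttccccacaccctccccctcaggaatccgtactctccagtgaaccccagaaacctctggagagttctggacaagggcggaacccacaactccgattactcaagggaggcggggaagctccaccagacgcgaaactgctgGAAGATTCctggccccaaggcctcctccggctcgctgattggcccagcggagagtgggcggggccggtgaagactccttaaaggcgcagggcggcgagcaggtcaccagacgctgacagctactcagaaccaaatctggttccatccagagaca
Hspa1b: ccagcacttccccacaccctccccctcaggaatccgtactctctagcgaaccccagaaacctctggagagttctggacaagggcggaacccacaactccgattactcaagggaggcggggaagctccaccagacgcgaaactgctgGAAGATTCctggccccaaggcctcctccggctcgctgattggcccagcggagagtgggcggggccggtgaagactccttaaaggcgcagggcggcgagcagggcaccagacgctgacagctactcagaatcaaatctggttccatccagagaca
Hspb1: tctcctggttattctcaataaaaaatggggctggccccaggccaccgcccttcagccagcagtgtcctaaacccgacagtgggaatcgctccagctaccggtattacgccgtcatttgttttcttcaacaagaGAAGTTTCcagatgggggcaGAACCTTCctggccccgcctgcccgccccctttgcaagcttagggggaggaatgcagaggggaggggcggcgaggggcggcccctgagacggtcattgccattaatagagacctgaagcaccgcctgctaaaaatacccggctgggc
Hsph1: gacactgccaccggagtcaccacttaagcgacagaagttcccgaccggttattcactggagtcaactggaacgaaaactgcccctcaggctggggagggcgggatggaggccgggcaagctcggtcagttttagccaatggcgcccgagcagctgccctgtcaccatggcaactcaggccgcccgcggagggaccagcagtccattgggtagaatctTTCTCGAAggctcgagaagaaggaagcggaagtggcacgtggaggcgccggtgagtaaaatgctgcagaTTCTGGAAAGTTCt

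The RefSeq promoter table held 6 of the 10 members in 8 windows, namely the 4 above, Dnajb1 and Hspa4. A paired unit stood in windows of 4 of these 6 members. Counted by window, it stood in 5 of the 8, and in 15.1% of all 32851 promoter windows. The near-identical windows of Hspa1a and Hspa1b and the overlapping windows of Hsph1 are not separate cases. GAANNTTC was found 104 bases before the start of both Hspa1a and Hspa1b and 117 and 97 bases before that of Hspb1, and 7.86% of all promoters hold it on either strand. TTCNNGAA was found in Hsph1, 33 bases before and 36 bases after the start, and in 8.52% of all promoters. In Hsph1 the second of these overlaps a GAANNTTC, so that 3 inverted units stand in a row, as in 0.603% of all promoters. The windows of Dnajb1 and Hspa4 held neither pair. Both strands were searched for CCAAT, found in 4 of the 6 members (5 of the 8 windows) and 37.4% of all promoter windows. GGGCGG was found in 5 members (7 of the 8 windows) and 35.7% of all promoter windows. TATAAA was found in none of the 6 and in 13.6% of all promoter windows. These matches describe letters in the window only.

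Libraries held 25.74 to 43.26 M counts. Levels are given as CPM, the counts of a gene per M (mega) counts of the TMM-scaled library size, on 1 scale for all 10 libraries unless values without WT replicate 5 are named. WT replicate 5 (library name 1165BT1) stood apart. Its 10 luminal epithelial markers summed to 131 CPM, against 4236 to 7977 CPM in the other 9 libraries, and its 10 skeletal muscle markers summed to 139685 CPM, against 1562 CPM or less. Each comparison is therefore given with it (10 libraries, 5 KO and 5 WT) and without it (9 libraries, 5 KO and 4 WT). Rhbdd1, the targeted gene, averaged 17.0 ± 3.40 CPM in KO tumours and 35.2 ± 7.48 CPM in WT tumours (SD, n = 5 each). Without WT replicate 5 it averaged 18.1 ± 3.55 CPM in KO tumours (n = 5) and 39.8 ± 5.64 CPM in WT tumours (n = 4). The groups did not overlap in either case, although the 10 libraries did without a scaling factor, and Rhbdd1 was not called (edgeR adjusted p of 0.669 and 0.113). The labels give each library its own batch number, so no comparison within a batch and no fit with batch as a term could be had, and the part of batch in any difference was not tested. Library names share a leading number in KO replicates 3 and 4, in WT replicates 1 and 2, and in WT replicates 3 and 4. The labels tie no library to an animal, so a p-value here reflects how far these libraries scatter, and some of that scatter may be technical. The main tests treated each library as independent. If libraries with a shared number come from the same animal, that does not hold, and the p-values may be too small. In whole tumour tissue, fewer cells of a type and less RNA per cell cannot be told apart.

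No member passed the test in either comparison (edgeR's quasi-likelihood test, Benjamini-Hochberg adjusted p under 0.05 over all genes tested). All 10 passed the filter on low counts in both. At an unadjusted p under 0.05 in edgeR there was 0 of 10 members with 10 libraries and 1, Hsp90aa1, with 9, where 2204 of all 19016 genes passed the same limit, so the members' count is no larger than the background. Over all genes the test called 0% of 18577 with 10 libraries, where 1301 genes had an unadjusted p under 0.05, and 0.0105% of 19016 with 9 libraries. DESeq2 called 43 and 326 genes and limma-voom with quality weights 17 and 143 genes in the same comparisons, and of the 10 members these included only Hsp90aa1, with DESeq2 and 9 libraries. With all 10 libraries, 8 of the 10 members had a negative log2 fold change (KO over WT), with a median of -0.13, beside 56.2% of all genes and a median of -0.06. With 9 libraries it was 7 of 10 members with a median of -0.06, beside 46.8% of all genes and a median of 0.03. Without WT replicate 1 as well, it was 4 of 10 members.

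**Figure D1:**
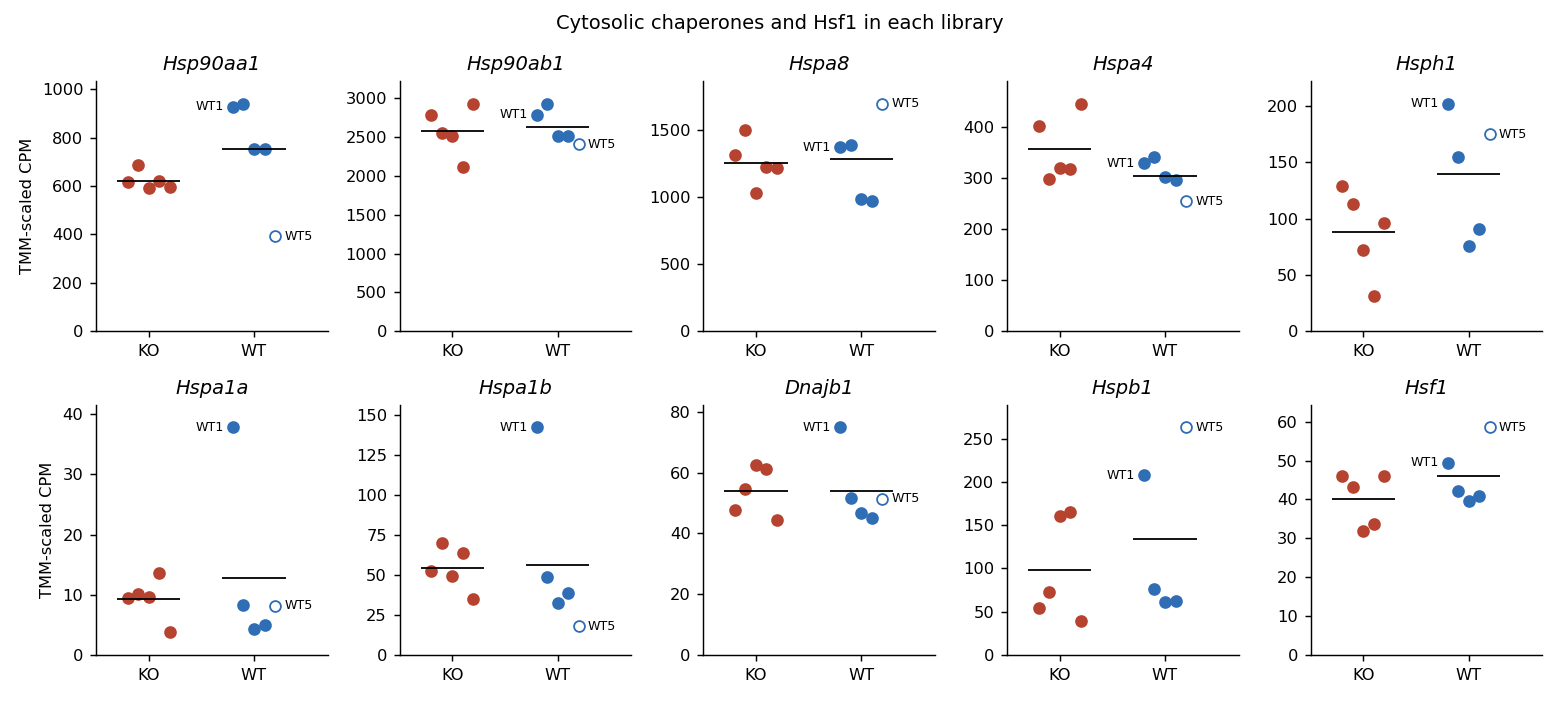
TMM-scaled CPM (linear axes from 0) of the 9 chaperone genes and Hsf1 in each KO library (left, red) and each WT library (right, blue), with replicates 1 to 5 from left to right within a group. Horizontal lines mark group means over 5 libraries, and the open circle is WT replicate 5. WT replicate 1 has the highest Hspa1a, Hspa1b, Dnajb1 and Hsph1 of the 10 libraries, and the 5 KO values of Hsp90aa1 lie between WT replicate 5 and the other 4 WT values.

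Both cytosolic HSP90 genes are members. Hsp90aa1 encodes the stress-inducible cytosolic HSP90α. It stood at 617, 687, 590, 622 and 596 CPM in KO replicates 1 to 5, against 928, 940, 753, 754 and 393 CPM in WT replicates 1 to 5. The KO values sat close together below WT replicates 1 to 4 and above WT replicate 5. With all 10 libraries Hsp90aa1 averaged 622 ± 38.5 CPM in KO tumours and 754 ± 221 CPM in WT tumours (SD, n = 5 each). Its log2 fold change there was -0.28 ± 0.23 (SE, edgeR adjusted p = 0.726). Without WT replicate 5 it averaged 664 ± 42.8 CPM in KO tumours (n = 5) and 888 ± 103 CPM in WT tumours (SD, n = 4). The groups did not overlap in that comparison, with 627 to 735 CPM in KO tumours and 798 to 983 CPM in WT tumours, and they did not overlap without a scaling factor either. Of all genes tested there, 3.44% had groups that did not overlap with KO lower, and 2.00% with KO higher. With all 10 libraries these shares were 1.18% and 0.807%, and no member's groups were apart.

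The log2 fold change of Hsp90aa1 without WT replicate 5 was -0.42 ± 0.10 (SE), the smallest error of the members, and its edgeR adjusted p was 0.280. It was negative in 18 of 18 alternative settings, between -0.47 and -0.32. DESeq2 gave an adjusted p of 0.0352. The adjusted p was 0.932, the highest of the alternatives, in edgeR with libraries summed by leading number. It was 0.738 in limma-voom with that number as a random block. DESeq2 called 0.972% of 19448 genes as lower in KO in that comparison. Cell division genes separated the same groups of libraries as Hsp90aa1. The 10 markers of dividing cells summed to 399 to 772 CPM in KO tumours, against 939 to 1162 CPM in WT replicates 1 to 4 and 57.8 CPM in WT replicate 5. In WT replicates 1 to 4 the sums were 939, 1014, 1020 and 1162 CPM, beside 928, 940, 753 and 754 CPM of Hsp90aa1. WT replicate 5 had 57.8 CPM beside 393 CPM of Hsp90aa1, the lowest of the 10 libraries for both. In KO replicates 1 to 5 the sums were 729, 618, 512, 399 and 772 CPM, beside 617, 687, 590, 622 and 596 CPM of Hsp90aa1. The part of cell division genes in the result was not tested.

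Hsp90ab1 encodes the constitutive HSP90β. It stood at 2779, 2548, 2513, 2115 and 2930 CPM in KO tumours, against 2788, 2930, 2514, 2520 and 2406 CPM in WT tumours. The WT range lay within the KO range, and KO replicate 4 was below every WT library. The log2 fold change was -0.03 ± 0.16 (SE) with 10 libraries and -0.04 ± 0.11 with 9, and edgeR's adjusted p was 0.962 and 0.905.

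The coding sequences of Hsp90aa1 and Hsp90ab1 are 76.8% identical (GENCODE M21). A share of counts within the pair does not depend on library scaling. Hsp90aa1 made up 18.2%, 21.2%, 19.0%, 22.7% and 16.9% of the pair's counts in KO tumours, against 25.0%, 24.3%, 23.1%, 23.0% and 14.0% in WT tumours. The mean share was 19.6% ± 2.33 in KO tumours (SD, n = 5) and 23.9% ± 0.968 in WT tumours without replicate 5 (n = 4), or 21.9% ± 4.48 in WT tumours with it (n = 5). Without that library the groups did not overlap. The nearest libraries were KO replicate 4, with a 95% Wilson interval of 22.4% to 23.0%, and WT replicate 4, with 22.8% to 23.3%, so these 2 overlap within counting error, which is all such intervals cover. The shares are a description, and no test was run on them.

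**Figure D2:**
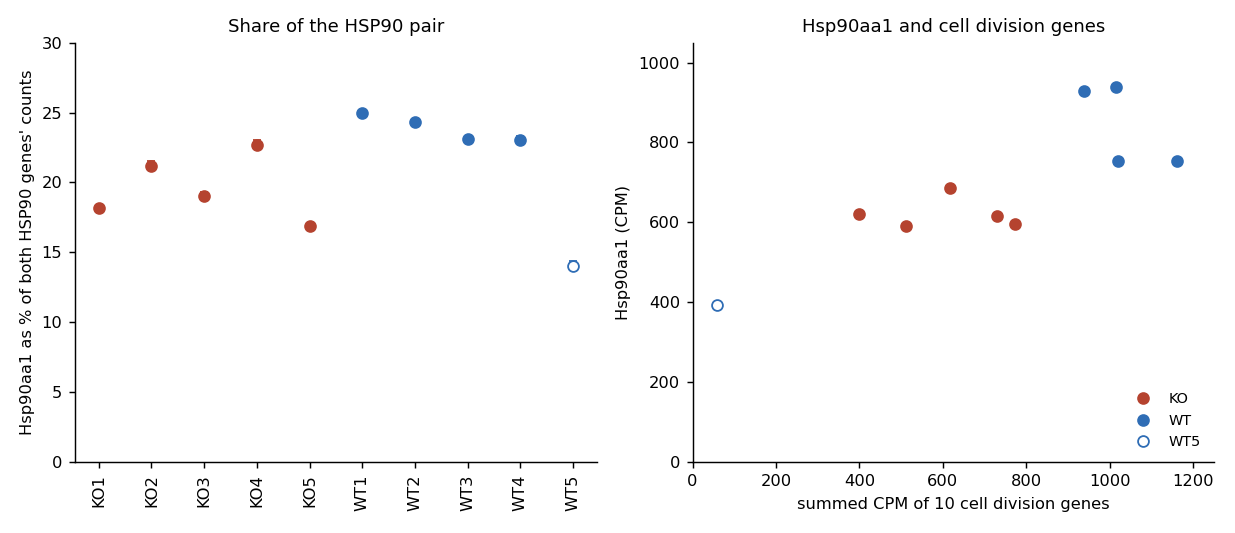
Left, Hsp90aa1 as a percentage of the counts of Hsp90aa1 and Hsp90ab1 together in each library, KO left of WT, with 95% Wilson intervals that are mostly smaller than the points. Right, Hsp90aa1 in CPM against the summed CPM of 10 cell division genes, in which the KO tumours (399 to 772 CPM on the horizontal axis) and WT replicates 1 to 4 (939 to 1162 CPM) separate on both axes, and WT replicate 5 (open circle) lies low on both.

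Of the HSP70 genes, Hspa8 encodes HSC70, the constitutive cytosolic form. It stood at 1313, 1495, 1029, 1220 and 1217 CPM in KO tumours, against 1370, 1389, 983, 968 and 1692 CPM in WT tumours. WT replicate 5 was the highest and WT replicates 3 and 4 the lowest, so the WT group spanned the KO group. The log2 fold change was -0.03 ± 0.20 (SE, edgeR adjusted p = 0.971) with 10 libraries and 0.11 ± 0.15 (0.803) with 9. The annotation places 3 small nucleolar RNA genes within Hspa8 on the same strand.

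Hspa1a and Hspa1b encode the inducible HSP70. Their coding sequences differ at 8 of 1923 aligned bases with an identical run of 638 bases, and their promoter windows differ at 4 of 300 bases, so how reads were split between them is uncertain. The annotation also places the predicted gene Gm20481 over Hspa1a on the opposite strand, and without the strand setting of the counting their reads cannot be told apart. Hspa1b stood at 52.3, 69.7, 49.0, 63.7 and 35.2 CPM in KO tumours, against 142, 48.7, 32.7, 38.4 and 17.9 CPM in WT tumours. Hspa1a stood at 9.46, 10.2, 9.55, 13.6 and 3.84 CPM in KO tumours, against 37.8, 8.31, 4.23, 4.99 and 8.21 CPM in WT tumours. For both genes WT replicate 1 was far above every other library, while the rest of the WT group overlapped the KO group or lay below it. WT replicate 2, whose library name begins with the same number, did not share the high value.

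The fold changes of this pair changed sign without WT replicate 1. Hspa1b had a log2 fold change of -0.05 ± 0.49 (SE, edgeR adjusted p = 0.978) with 10 libraries and -0.26 ± 0.42 (0.838) with 9. Leaving out WT replicate 1 turned these to 0.65 and 0.45. Hspa1a had -0.45 ± 0.62 (0.827) with 10 libraries and -0.54 ± 0.65 (0.766) with 9, and leaving out WT replicate 1 turned these to 0.54 and 0.69. With the counts of both genes added up, the log2 fold change was -0.12 and -0.30, with edgeR adjusted p of 0.947 and 0.822.

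Hspa1a held 15.3%, 12.8%, 16.3%, 17.6% and 9.83% of the pair's counts in KO tumours, against 21.0%, 14.6%, 11.4%, 11.5% and 31.4% in WT tumours. Both genes were thus high together in WT replicate 1, and the split was most even in WT replicate 5. Hspa1b made up 3.83%, 4.45%, 4.54%, 4.96% and 2.81% of the counts of Hspa1b and Hspa8 in KO tumours, against 9.40%, 3.39%, 3.22%, 3.81% and 1.05% in WT tumours. The constitutive gene took over 9 in 10 counts of these 2 HSP70 genes in every library. WT replicate 1 also differed in cell type markers. Its 8 leukocyte markers summed to 1374 CPM, against 124 to 375 CPM in the other 8 libraries without WT replicate 5, and of these S100a8, a neutrophil gene, stood at 1242 CPM, against 14.5 to 273 CPM. The other 7 leukocyte markers summed to 133 CPM there, within the 77.1 to 154 CPM of those 8 libraries. Its 8 fibroblast markers summed to 158 CPM, against 1436 to 6956 CPM in the same 8 libraries. The part of these markers in the HSP70 values was not tested.

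Hspa4 and Hsph1 encode HSP110-type proteins, which act as nucleotide exchange factors for HSP70. Hspa4 stood at 401, 298, 319, 317 and 445 CPM in KO tumours, against 329, 340, 302, 296 and 254 CPM in WT tumours. KO replicates 1 and 5 were the highest, and the other KO values lay among the WT values. Its log2 fold change was 0.22 ± 0.16 (SE, edgeR adjusted p = 0.694) with 10 libraries and 0.18 ± 0.13 (0.609) with 9, and it was positive in each alternative of both.

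Hsph1, the heat-inducible HSP105, stood at 129, 113, 72.3, 31.7 and 96.5 CPM in KO tumours, against 202, 155, 75.8, 90.5 and 175 CPM in WT tumours. KO replicate 4 was the lowest and WT replicate 1 the highest, and the groups overlapped. The averages were 88.5 ± 38.1 CPM in KO tumours and 140 ± 54.4 CPM in WT tumours (SD, n = 5 each). Hsph1 had the most negative log2 fold change of the members with 10 libraries, -0.66 ± 0.39 (SE, edgeR adjusted p = 0.671), and -0.54 ± 0.40 (0.625) with 9. Leaving out WT replicate 1 as well moved the second value to -0.26, and limma-voom with quality weights gave 0.04 with 10 libraries and 0.06 with 9.

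Dnajb1, the inducible J-domain protein HSP40, stood at 47.7, 54.7, 62.5, 61.1 and 44.4 CPM in KO tumours, against 74.9, 51.7, 46.8, 45.2 and 51.4 CPM in WT tumours. WT replicate 1 was again the highest and the other libraries were mixed. The log2 fold change was 0.00 ± 0.17 (SE) in both comparisons, with edgeR adjusted p of 0.998 and 0.995.

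Hspb1, the small heat shock protein HSP25, holds unfolded proteins without using ATP. It stood at 53.9, 72.8, 161, 165 and 39.3 CPM in KO tumours, against 208, 76.4, 61.7, 62.7 and 263 CPM in WT tumours. High values thus occurred in both groups, in KO replicates 3 and 4, whose library names share a leading number, and in WT replicates 1 and 5. The log2 fold change was -0.45 ± 0.55 (SE, edgeR adjusted p = 0.807) with 10 libraries and -0.04 ± 0.52 (0.984) with 9, and 0.57 without WT replicates 1 and 5. Among the 9 libraries the luminal marker sum was also highest in these 3, at 5939 and 7977 CPM in KO replicates 3 and 4 and 6105 CPM in WT replicate 1, while WT replicate 5, the highest for Hspb1, had the lowest luminal sum, 131 CPM. The 8 leukocyte markers summed to 313 and 375 CPM in KO replicates 3 and 4 and to 1374 and 283 CPM in WT replicates 1 and 5, against 124 to 175 CPM in the other 6 libraries. Without S100a8 the other 7 summed to 125 and 102 CPM in those KO libraries and to 133 and 281 CPM in those WT libraries, against 77.1 to 154 CPM. The part of luminal cells and of leukocytes in the result was not tested.

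Hsf1 stood at 46.1, 43.1, 31.8, 33.7 and 46.1 CPM in KO tumours, against 49.4, 42.1, 39.7, 40.9 and 58.5 CPM in WT tumours. KO replicates 3 and 4 were the lowest, and they were among the highest for Hspb1. The log2 fold change of Hsf1 was -0.20 ± 0.16 (SE, edgeR adjusted p = 0.728) with 10 libraries and -0.08 ± 0.14 (0.849) with 9. RNA levels do not show the activity of HSF1, which is controlled on the protein.

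**Figure D3:**
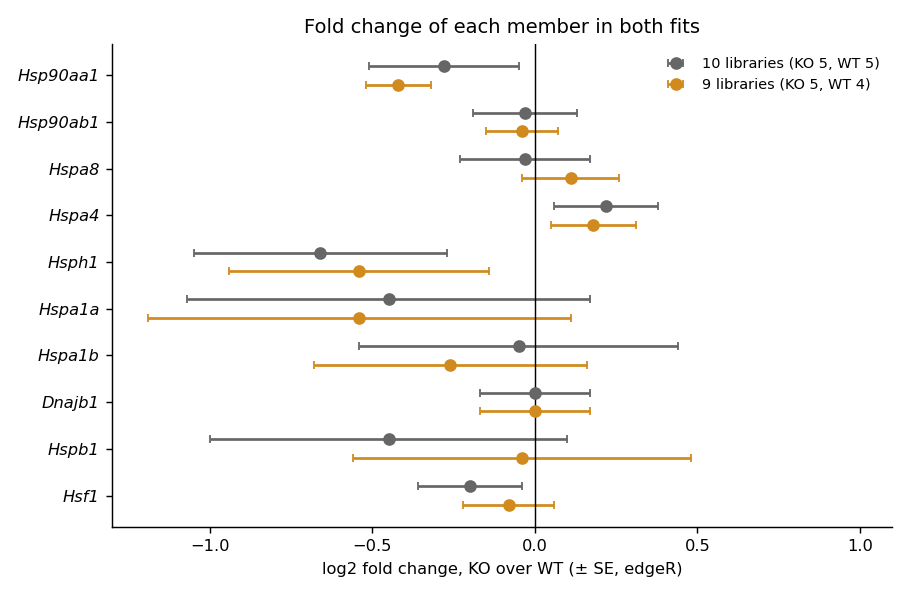
Log2 fold change of each member, KO over WT, with its standard error, from the edgeR fit of 10 libraries (grey) and of 9 libraries without WT replicate 5 (orange). Hsp90aa1 without WT replicate 5 is at -0.42 ± 0.10, and the error bars of Hsp90ab1, Hspa8, Hspa1a, Hspa1b, Dnajb1 and Hspb1 reach across 0 in both fits.

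Levels of different members were compared per kb of coding sequence, over the 9 libraries. Hsp90ab1 led with 1282 ± 121 CPM per kb, ahead of Hspa8 with 668 ± 104 and Hsp90aa1 with 347 ± 62.6 CPM per kb (SD, n = 9). Hspb1 followed with 169 ± 102 and Hspa4 with 142 ± 21.6 CPM per kb, and their ranges of mean ± 1 SD overlapped. Dnajb1 with 56.5 ± 10.4, Hsph1 with 44.1 ± 20.2, Hspa1b with 32.5 ± 18.2 and Hsf1 with 27.6 ± 3.74 CPM per kb came next, each overlapping its neighbour by the same measure, while the other neighbours in this order lay apart. Hspa1a was the lowest with 6.23 ± 5.67 CPM per kb. The constitutive genes of the HSP70 and HSP90 families were thus each above their inducible relatives.

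Variation between tumours was widest in 4 members. The coefficient of variation of CPM over the 9 libraries was 91.0% for Hspa1a, 60.5% for Hspb1, 56.0% for Hspa1b and 45.9% for Hsph1. It was 18.5% for Dnajb1, 18.0% for Hsp90aa1, 15.5% for Hspa8, 15.2% for Hspa4, 13.6% for Hsf1 and 9.45% for Hsp90ab1. The highest library exceeded the lowest 9.65-fold for Hspa1a, 6.24-fold for Hsph1, 5.19-fold for Hspb1 and 4.29-fold for Hspa1b. Without WT replicate 1, a comparison added after seeing the data, the coefficient of variation over 8 libraries was 56.3% for Hspb1, 42.8% for Hspa1a, 39.0% for Hsph1 and 27.5% for Hspa1b, and 16.4% or less for the other 6. The highest library then exceeded the lowest 3.54-fold for Hspa1a and 2.15-fold for Hspa1b. These 4 are the members whose promoters are shown above, out of 6 with a promoter entry, which is a description and carries no test. Hspa1a and Hspa1b, whose windows differ at 4 of 300 bases, are not separate cases.

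**Figure D4:**
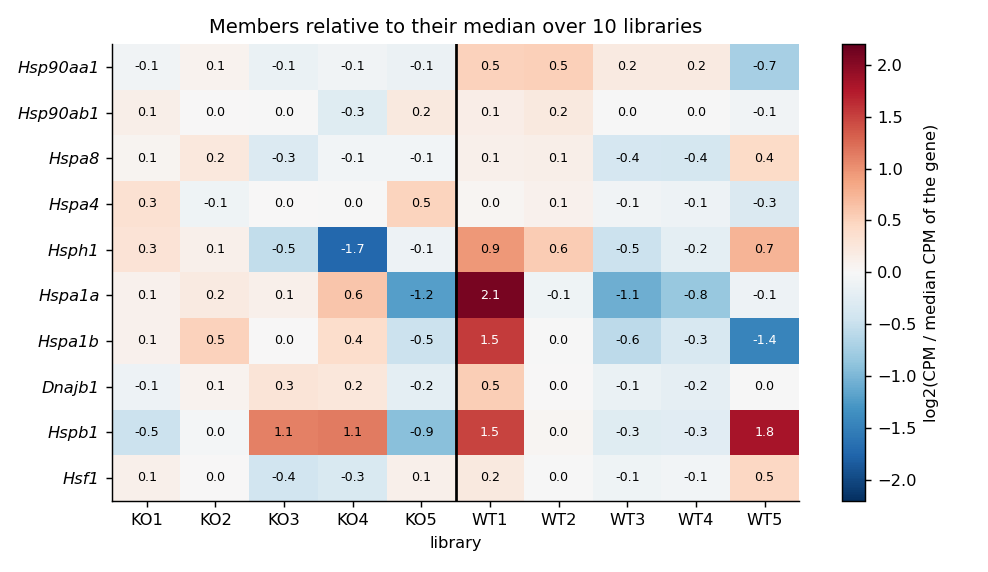
Log2 of each member's CPM over its own median in the 10 libraries, with KO libraries left of the black line and WT libraries right of it. WT1 is the reddest column for Hspa1a (2.1) and Hspa1b (1.5), Hspb1 is high in KO3, KO4, WT1 and WT5, and Hsph1 is lowest in KO4 (-1.7).

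The genes most like 3 members across the 9 libraries were found by Pearson's r of log2 CPM among 9854 genes with a mean of at least 10 CPM. They are the highest of that many values and so a description, with no p, and each r is given again without the 2 libraries farthest from the member's median. For Hspa1b they were Hspa1a (r = 0.975, and 0.91 without WT replicates 1 and 3), Trim56 (0.949 and 0.80), Mycbp2 (0.946 and 0.81), Dram1 (0.946 and 0.84) and Me1 (0.933 and 0.93). For Hsp90aa1 they were Emg1 (0.954, and 0.87 without WT replicates 1 and 2), Metap2 (0.941 and 0.94), Poc1b (0.938 and 0.76), Pnrc1 (0.936 and 0.83) and Ptges3 (0.935 and 0.91). Ptges3 encodes p23, an HSP90 co-chaperone, and was the only gene of the related lists among these. For Hspb1 they were Chmp4b (0.982, and 0.96 without KO replicate 4 and WT replicate 1), Cnksr1 (0.979 and 0.99), Saa2 (0.971 and 0.96), Rab22a (0.969 and 0.97) and Eif5b (0.967 and 0.93). Among members, Hspb1 and Dnajb1 had an r of 0.950 (0.91 without those 2 libraries), and Hspa1b and Dnajb1 one of 0.864 (0.70 without WT replicates 1 and 3). Hsp90aa1 and Hsp90ab1 had an r of 0.285 (-0.20 without WT replicates 1 and 2).

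The rest of the chaperone network was read from 81 related genes in 7 lists, of which 78 were tested and none was called in either comparison. Without WT replicate 5, 19 of the 78 had an unadjusted p under 0.05 in edgeR with KO lower and 6 with KO higher, beside 5.85% and 5.74% of all genes. With all 10 libraries it was 18 and 2, beside 4.44% and 2.56% of all genes. The cell division markers given above separate the same 9 libraries by genotype, and their part in these lists was not tested. Counts of negative log2 fold changes in the lists stand beside 46.8% of all genes tested with 9 libraries and 56.2% with 10. The values below are from the 9 libraries (mean ± SD, KO n = 5, WT n = 4).

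Of 18 HSP90 partners, 13 had a negative log2 fold change, with a median of -0.25, 7 had an unadjusted p under 0.05 in edgeR with KO lower, and 1 with KO higher. Leaving out each library in turn gave 5 to 8 with KO lower. Groups that did not overlap were found for 4 partners, Ptges3, Nudc, Stip1 and Cdc37, of which Cdc37, a kinase co-chaperone, was named after its values were seen. All 4 had KO lower, and of all genes tested 3.44% had such groups with KO lower. Ptges3 averaged 217 ± 21.3 CPM in KO tumours and 282 ± 16.9 CPM in WT tumours (log2 fold change -0.38 ± 0.09, SE, edgeR adjusted p = 0.285). Nudc averaged 103 ± 5.08 CPM in KO tumours and 127 ± 5.70 CPM in WT tumours (edgeR adjusted p = 0.285). Sugt1, which encodes the co-chaperone SGT1, averaged 85.6 ± 2.58 CPM in KO tumours and 103 ± 11.5 CPM in WT tumours (edgeR adjusted p = 0.330). Stip1, which encodes HOP, the bridge between HSP70 and HSP90, averaged 153 ± 40.2 CPM in KO tumours and 223 ± 17.5 CPM in WT tumours (edgeR adjusted p = 0.338). The single partner with KO higher was Fkbp5, a glucocorticoid-induced co-chaperone named after its value was seen, with a log2 fold change of 1.25 ± 0.51 (SE, edgeR adjusted p = 0.397). In the 10 libraries the HSP90 partners gave 14 of 18 negative, a median of -0.33, and 8 with KO lower and 1 with KO higher at that unadjusted p in edgeR.

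The 14 subunits of the cytosolic chaperonin, which folds actin and tubulin, and of prefoldin had 11 negative log2 fold changes and a median of -0.14. Of these, 5 had an unadjusted p under 0.05 in edgeR with KO lower and 1 with KO higher. Groups that did not overlap were likewise found for 5 and 1 genes, beside 3.44% and 2.00% of all genes. Cct7 averaged 271 ± 13.2 CPM in KO tumours and 338 ± 8.33 CPM in WT tumours (edgeR adjusted p = 0.279). Cct6a averaged 312 ± 19.0 CPM in KO tumours and 394 ± 15.0 CPM in WT tumours (edgeR adjusted p = 0.279). Both belong to the ring of the chaperonin. Vbp1, a prefoldin subunit, averaged 74.5 ± 5.66 CPM in KO tumours and 91.7 ± 2.75 CPM in WT tumours (edgeR adjusted p = 0.294). Pfdn5, another prefoldin subunit, stood the other way round, with 158 ± 22.3 CPM in KO tumours and 117 ± 9.67 CPM in WT tumours (edgeR adjusted p = 0.294). In the 10 libraries the chaperonin and prefoldin genes gave 11 negative, a median of -0.16, and 3 with KO lower and 1 with KO higher at that unadjusted p in edgeR.

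The 20 tested HSP70 partners were evenly placed, with 9 negative, a median of 0.03, and 2 with an unadjusted p under 0.05 in edgeR in each direction. Dnaja4, a J-domain protein, averaged 7.62 ± 1.67 CPM in KO tumours and 3.18 ± 1.49 CPM in WT tumours, but stood at 46.8 CPM in WT replicate 5. Dnajc7, another J-domain protein, had a log2 fold change of 0.22 ± 0.10, Hspa14 -0.24 ± 0.08, and Bag2, a nucleotide exchange factor, -0.26 ± 0.09 (SE, edgeR adjusted p from 0.296 to 0.428 for these 4). In the 10 libraries, 17 of the HSP70 partners were negative, with a median of -0.17.

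Among 10 other heat-inducible genes, 5 were negative with a median of -0.04, and 3 had an unadjusted p under 0.05 in edgeR with KO lower. Those 3 were Hspd1 and Hspe1, the chaperonin of the mitochondrial matrix and its lid, and Cacybp. Hspd1 averaged 325 ± 61.7 CPM in KO tumours and 491 ± 66.1 CPM in WT tumours (edgeR adjusted p = 0.286). Hspe1 averaged 126 ± 16.7 CPM in KO tumours and 182 ± 13.9 CPM in WT tumours (edgeR adjusted p = 0.244). Cacybp averaged 96.4 ± 15.4 CPM in KO tumours and 132 ± 8.45 CPM in WT tumours (edgeR adjusted p = 0.294). None of these 3 had overlapping groups, and of all genes tested 3.44% had groups apart with KO lower. Dedd2 had a log2 fold change of 0.27 ± 0.17 (SE, edgeR adjusted p = 0.566). Adding WT replicate 5, 7 were negative, with a median of -0.34.

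All 6 organelle counterparts of cytosolic chaperones were negative, from -0.41 to -0.12 with a median of -0.22, beside 46.8% of all genes. Hsp90b1, the HSP90 of the endoplasmic reticulum, averaged 605 ± 97.5 CPM in KO tumours and 802 ± 117 CPM in WT tumours (edgeR adjusted p = 0.357). Trap1, the mitochondrial HSP90, averaged 101 ± 15.7 CPM in KO tumours and 126 ± 7.66 CPM in WT tumours (edgeR adjusted p = 0.368). Dnaja3 had a log2 fold change of -0.24 ± 0.13 and Hyou1 one of -0.20 ± 0.20 (SE, edgeR adjusted p of 0.504 and 0.722). In the 10 libraries all 6 were negative too, from -0.84 to -0.01 with a median of -0.39, beside 56.2% of all genes.

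Of 5 tested genes of the HSF family and its regulators, Hsf4 had a log2 fold change of 0.61 ± 0.25, Sirt1 -0.24 ± 0.14, Hsf2 0.09 ± 0.13 and Hsbp1 -0.04 ± 0.09 (SE, edgeR adjusted p from 0.407 to 0.907). The list's median was -0.01, and -0.23 with all 10 libraries. Hsf4 was low, averaging 3.57 CPM in KO tumours and 2.35 CPM in WT tumours without replicate 5. WT replicate 5 held 13.0 CPM of Hsf4 and 49.4 CPM of Hsf2. With it the log2 fold changes were -0.38 ± 0.57 for Hsf4 and -0.30 ± 0.29 for Hsf2 (SE).

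The other small heat shock proteins changed sign with WT replicate 5. Their 5 tested genes were all positive in the 9 libraries, with a median of 0.92, and all negative in the 10, with a median of -3.03. Hspb7 stood at 2.64, 0.341, 9.18, 63.3 and 0.216 CPM in KO tumours, against 0.211, 0.486, 0.537, 1.08 and 725 CPM in WT tumours. Cryab, which encodes αB-crystallin, averaged 39.5 ± 38.5 CPM in KO tumours and 20.9 ± 7.97 CPM in WT tumours without replicate 5, which held 1436 CPM. Hspb6 reached 26.6 CPM in KO replicate 4 and 2234 CPM in WT replicate 5. Hspb2 had a log2 fold change of 1.20 ± 0.67 (SE, edgeR adjusted p = 0.519) with 9 libraries. KO replicate 4 and WT replicate 5 also had the highest skeletal muscle marker sums, 1562 and 139685 CPM, against 2.68 to 162 CPM elsewhere, and the part of muscle in these values was not tested.

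**Figure D5:**
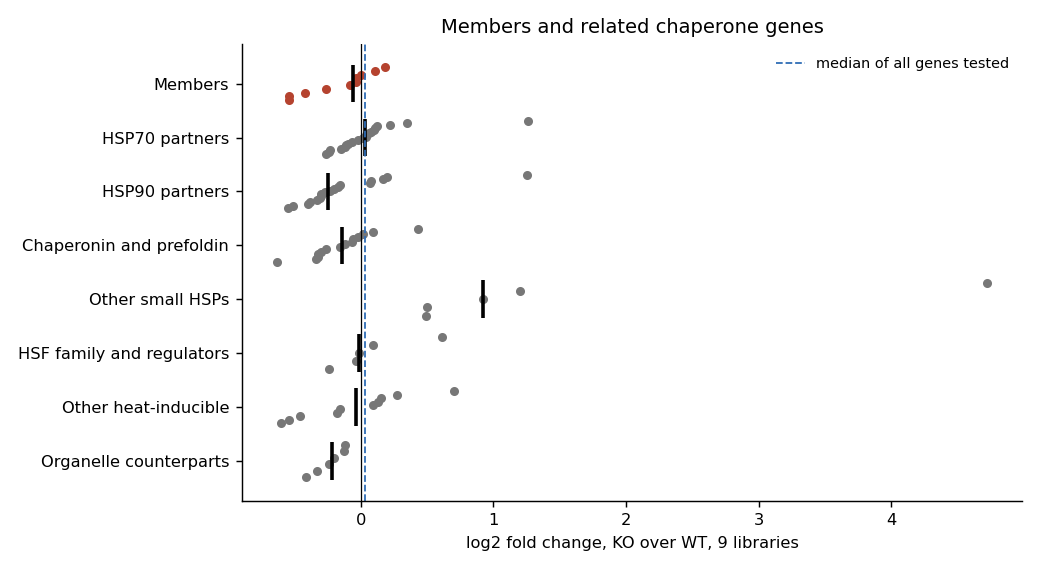
Log2 fold changes, KO over WT, of the members (red) and of the related chaperone genes (grey) by list, from the edgeR fit of 9 libraries. Black bars are list medians and the dashed line is the median of all genes tested (0.03), with the HSP90 partners at a median of -0.25 and the HSP70 partners at 0.03.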

How the data were processed

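Messenger RNA of 10 tumours was sequenced from poly(A)-selected, stranded Illumina libraries, per the labels' protocols. The authors deposited read counts per Ensembl gene, whole numbers that were not normalized. Per the submitters' processing notes the tools were FastQC, STAR, featureCounts and DESeq2 and the build GRCm39. No source used here gives their versions, the strand setting or how multiply matching reads were handled, so reads shared by near-identical genes such as Hspa1a and Hspa1b could have been split or dropped.

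The members, related lists, marker lists and comparisons were chosen with earlier results of these data known. KO was compared with WT over the whole table in edgeR 4.0.16 (R 4.3.3), with TMM scaling, filterByExpr, robust quasi-likelihood F-tests and calls at a Benjamini-Hochberg adjusted p under 0.05. Each SE is the absolute log2 fold change over the square root of F. Means ± SD use the scaling of the named fit. Any pair of libraries of a group differed by at least 20.8 in chi-square per degree of freedom, so none was counted as a repeat of the same library. That lowest value was for WT replicates 3 and 4, which share a leading number, and the next, 43.9, for KO replicates 1 and 5. The measure cannot tell whether libraries come from the same animal. Named related genes are up to 4 per list with the smallest p without WT replicate 5. Alternatives were RLE scaling, no scaling factor, DESeq2 1.42.0, limma-voom 3.58.1 with quality weights, no low-count filter, at least 10 counts in every library, libraries summed or blocked by leading number, Hspa1a and Hspa1b summed, and each library left out. Related-list counts leaving out each library were added after the data were seen. The fits were tested on simulated counts. Coding lengths came from GENCODE M21 (GRCm38), not the build of the counts, and were used for lengths, sequence identity and overlaps only.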

Additional observations from a re-analysis of the deposited data

Results flagged for a closer look

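Among the 5 WT tumours, WT replicate 1 lay far from the rest for 3 members. It held 37.8 CPM of Hspa1a, against 4.23 to 8.31 CPM in the other 4, 142 CPM of Hspa1b, against 17.9 to 48.7 CPM, and 74.9 CPM of Dnajb1, against 45.2 to 51.7 CPM. Among the 4 WT tumours without replicate 5, on the scaling of that comparison, it held 39.6 CPM of Hspa1a, against 4.48 to 8.69 CPM in the other 3, 149 CPM of Hspa1b, against 34.7 to 50.9 CPM, and 218 CPM of Hspb1, against 65.4 to 79.9 CPM. In each case the gap to the nearest other library took up more of the group's range than Dixon's 95% limit. Chance flags about 1 in 20 groups, 30 groups of member values were examined, and these 6 flags share 1 library and, for Hspa1a and Hspa1b, near-identical sequence, so they are not 6 separate observations. The same library had the highest S100a8 of the 10, 1242 CPM, and the part of that in these values was not tested.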

How the results depend on the processing

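Of 368 values of members under alternatives, 33 changed sign without passing the test. Only 1, Hsp90aa1 without WT replicate 5, passed it with DESeq2 (log2 fold change -0.43, adjusted p 0.0352). The other 334 stayed on their side of the threshold and were counted as unchanged in direction. These include every value of Dnajb1, whose log2 fold change of 0.00 in both comparisons has no direction to keep. Its alternatives ran from -0.05 to 0.15 with 10 libraries and from -0.08 to 0.19 with 9. The number of genes called with 10 libraries was 0, but 43 with DESeq2 (27 higher in KO, 16 lower) and 17 with limma-voom with quality weights, and 0 to 2 when 1 library was left out, with 2 without WT replicate 5. With 9 libraries it was 2, but 1 with no scaling factor, 3 with no low-count filter, 326 with DESeq2 (137 higher, 189 lower) and 143 with limma-voom with quality weights. It was 0 with libraries summed by leading number, 0 with that number as a random block, and 0 to 1 when 1 library was left out. With 10 libraries, limma-voom with quality weights turned Hsf1 to 0.06, Hspa1a to 0.47, Hspa1b to 0.34, Hspa8 to 0.29, Hsph1 to 0.04 and Hsp90ab1 to 0.06. No scaling factor, which shifted the median of all genes by 0.13, turned Hspa1b to 0.01, Hspa8 to 0.15 and Hsp90ab1 to 0.09. Sums by leading number turned Hspa1b to 0.17 and Hsp90ab1 to 0.03, the random block turned them to 0.31 and 0.02, and no low-count filter turned Hspa8 to 0.01. With 9 libraries, limma-voom with quality weights turned Hsf1 to 0.07, Hspa1a to 0.47, Hspa1b to 0.33, Hsph1 to 0.06 and Hsp90ab1 to 0.07. Leaving out 1 of 10 libraries gave -0.67 to 0.54 for Hspa1a, -0.26 to 0.65 for Hspa1b, -0.11 to 0.11 for Hspa8 and -0.08 to 0.03 for Hsp90ab1. Leaving out 1 of 9 gave -0.85 to 0.69 for Hspa1a, -0.48 to 0.45 for Hspa1b, -0.09 to 0.02 for Hsp90ab1 and -0.30 to 0.57 for Hspb1. The cause of these changes was not tested beyond the library left out. No paired analysis was possible because the labels tie no KO library to a WT library, and no leading number occurs in both groups. Member counts were 123 or more in every library.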
